A study of Mus musculus with 20 samples.

Results

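The comparison described here is that of C2C12 myotubes overexpressing Per2 with their own Gfp controls, taken from a series of 20 bulk RNA sequencing libraries of which these make up 10. C2C12 is a mouse myoblast line whose cells fuse into myotubes when serum is withdrawn. On day 4 of differentiation the Per2 myotubes (5 libraries) received an adenovirus that carries Per2 and Gfp, each under its own CMV promoter, and the Gfp myotubes (5 libraries) received one that carries Gfp without Per2. RNA was taken 48 h after transduction, so both groups share the viral vector, Gfp, the line and the day. The study's methods give the Per2 virus at a higher titre than the Gfp virus, so titre and Per2 cannot be told apart. The methods take the RNA of both groups from within an experimental replicate of 1 line, so that a p value here speaks only of variation from culture to culture. The members are all genes whose rlog averages 3 or more across the 10 libraries. They are 20628 of the 55335 genes in the deposited table. The rlog is the authors' regularized log2 value of a gene's count, it shrinks differences, and since no counts are given the sequencing depth cannot be known. Gm11638 was the gene just inside this limit (mean rlog 3.00) and Gm27030 the gene just outside it (mean rlog 2.9999).

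PER2 is a repressor of the circadian clock that is transcribed in daily cycles and, with the CRY proteins, holds back the transcription factors CLOCK and BMAL1. It also binds other nuclear factors and can act on genes outside the clock. The clock genes, interferon-stimulated genes, antigen presentation genes and chemokines are left aside here, and the account covers what else differed. Most of it concerns inducible stress genes, growth factor and prostaglandin genes, cytoskeletal genes of the growth cone, matrix proteins, and lipid synthesis.

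The labels call the cells myoblasts, and the markers were read against that. The 14 myotube markers had a summed level of 21.15 to 21.20 rlog units in Per2 libraries and 21.15 to 21.30 in Gfp libraries, and Acta1 and Des, skeletal actin and desmin, were at 18.49 to 18.56 and 18.74 to 18.77 in Per2 libraries, against 18.50 to 18.64 and 18.75 to 18.81 in Gfp libraries. Markers of proliferating myoblasts were also present (summed level 17.14 to 17.29 in Per2 libraries and 17.03 to 17.17 in Gfp libraries). At a limma adjusted p of 0.05, 6 of the 14 myotube markers were lower and 1 higher with Per2 (median difference −0.11). Of 10 proliferating myoblast markers 4 were higher and none lower (median difference 0.07). Over all genes tested the shares were 18.6% higher and 17.5% lower. Of other cell types, the macrophage markers Adgre1 and Tyrobp and the adipocyte markers Adipoq, Plin1 and Cidec were under the limit, and Rbfox3, Sox10, Snap25 and Syt1 of neurons and Schwann cells as well. In bulk samples, fewer cells of a type and less RNA per cell cannot be told apart. The first principal component held 62.5% of the variance and separated Per2 from Gfp libraries. The second held 8.42% and set Gfp libraries 1 and 2 apart from Gfp libraries 3, 4 and 5. Leaving out that pair moved 8 of the counts past the adjusted p in gene and marker lists by over 1.5 times. Only some of these are given below, so a count printed without such a value may also depend on the pair.

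Per2 itself (chromosome 1) was at 19.75, 19.71, 19.65, 19.67 and 19.77 rlog units in Per2 libraries 1 to 5, against 14.76, 14.74, 14.92, 14.96 and 14.73 in Gfp libraries 1 to 5. Every Per2 library lay far above every Gfp library, as the labels say. The log2 difference was 4.89 (standard error 0.043, limma adjusted p = 7.04e-18, exact permutation p = 0.00794, two-sided, the smallest that the 252 splits allow). The value sums the viral mRNA and the mRNA of the cell.

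In limma, 67 genes (0.325% of those tested) were called higher with Per2 and 61 (0.296%) lower. Called means past both an adjusted p of 0.05 and a threshold of 0.5 on the log2 difference, in either direction. Of the genes called higher 34 belong to the clock, interferon, antigen presentation and chemokine lists and 33 do not, while of the genes called lower 4 do and 57 do not. At the adjusted p alone, 3842 genes (18.6%) were higher and 3600 (17.5%) lower. After the libraries were centred on their medians these became 2765 higher and 5118 lower, and the median difference moved to −0.02, so that small differences depend on the scaling. The groups did not overlap for 2793 genes that were higher (13.5%) and for 2636 that were lower (12.8%). The median difference of all genes was 0.00060 and their median standard error 0.026. Counts at the adjusted p alone are given below for whole lists, and are to be read against 18.6% and 17.5%.

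**Figure D1:**
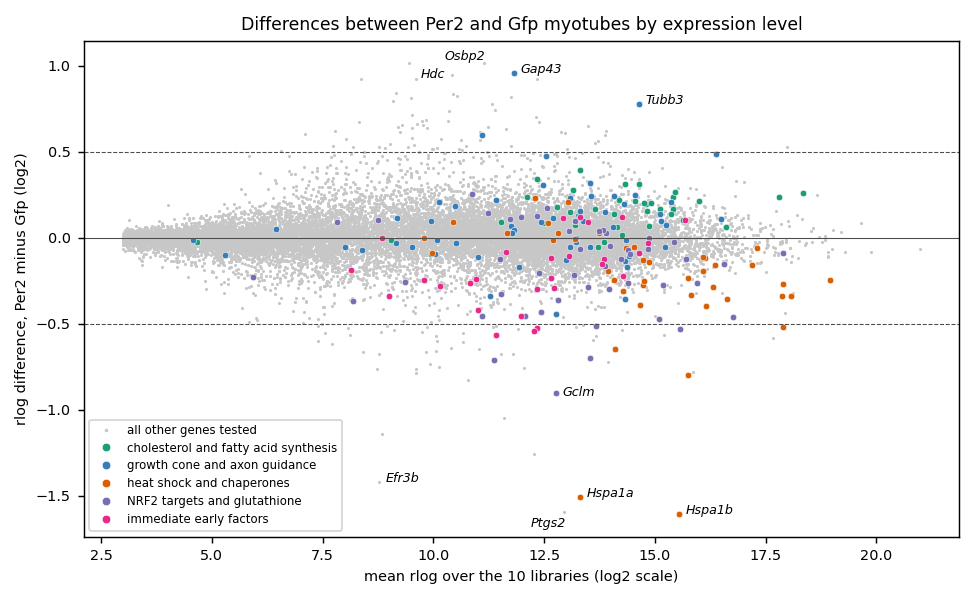
Log2 difference in rlog, Per2 minus Gfp, against the mean rlog over the 10 libraries for all genes tested except Per2, with the members of 5 gene lists in colour and dashed lines at the 0.5 threshold. Hspa1b (−1.61) and Hspa1a (−1.51) lie lowest among the coloured genes, Gap43 (0.96) and Tubb3 (0.78) highest, and the lipid synthesis genes sit mostly above 0 and within the dashed lines.

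The inducible HSP70 chaperones Hspa1b and Hspa1a were among the 4 largest falls outside the lists left aside, with Ptgs2 and Efr3b. HSP70 proteins bind unfolded stretches of other proteins, and Hspa1a and Hspa1b are the copies that heat shock factor 1 switches on under proteotoxic stress through heat shock elements in their promoters. The pair are neighbours on chromosome 17 of GRCm38.p6, Hspa1b from 34956429 to 34959238 and Hspa1a from 34969359 to 34972156. Their upstream sequences are printed because both fell by over 1.5 on the log2 scale and because they show how alike the copies are. The 250 bases before each RefSeq start site are given in the direction of the gene, with each match to the core of the heat shock element, GAANNTTC, in capitals.
Hspa1a, chr17:34972157-34972406, minus strand: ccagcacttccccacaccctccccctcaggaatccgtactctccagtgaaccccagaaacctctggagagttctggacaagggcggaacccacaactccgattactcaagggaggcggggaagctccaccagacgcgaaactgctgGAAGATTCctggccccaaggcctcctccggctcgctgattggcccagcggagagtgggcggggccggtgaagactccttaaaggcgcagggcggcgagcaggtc
Hspa1b, chr17:34959239-34959488, minus strand: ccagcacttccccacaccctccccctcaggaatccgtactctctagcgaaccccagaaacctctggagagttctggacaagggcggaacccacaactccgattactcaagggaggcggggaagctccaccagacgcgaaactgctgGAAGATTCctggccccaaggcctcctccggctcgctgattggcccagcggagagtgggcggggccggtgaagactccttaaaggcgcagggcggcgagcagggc
The copies are identical at 247 of the 250 positions (98.8%), and each has 1 match, which begins 104 bases before the start site. Among the genes of the heat shock list that have an entry in the promoter table (32 of 41), the core stood in 17 of 46 promoters of 300 bases (37.0%), against 950 of the 16153 promoters of all genes tested (5.88%). A match is a stretch of letters and no measurement of binding.

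Hspa1b was at 14.73, 14.78, 14.72, 14.70 and 14.78 rlog units in Per2 libraries 1 to 5, against 16.50, 16.39, 16.22, 16.29 and 16.34 in Gfp libraries 1 to 5. The Per2 libraries lay within 0.1 of each other and far below every Gfp library, among which library 1 was highest. The log2 difference was −1.61 (standard error 0.041, adjusted p = 5.70e-12 from limma). Hspa1a was at 12.59, 12.60, 12.54, 12.53 and 12.57 in Per2 libraries, against 14.25, 14.07, 13.95, 14.03 and 14.08 in Gfp libraries, a log2 difference of −1.51 (standard error 0.041). The copies may share reads, so their separate values are uncertain, while both moved the same way.

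The partners of HSP70 fell with it. Hsph1, an HSP110 protein that exchanges the nucleotide of HSP70, was at 15.32 to 15.36 in Per2 libraries and 16.04 to 16.25 in Gfp libraries (log2 difference −0.80, standard error 0.031). Dnajb1, the HSP40 protein that hands clients to HSP70, was at 13.73 to 13.80 in Per2 libraries and 14.36 to 14.51 in Gfp libraries (−0.64, standard error 0.027). Neither Hsph1 nor Dnajb1 had a match to GAANNTTC in the 250 bases before its start sites. Other arrangements of the heat shock element were not searched for, so one may still be present there.

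Of 41 heat shock and chaperone genes tested, 5 were called lower and none higher, and at the adjusted p alone 30 were lower and 2 higher, with a median difference of −0.19. Below the fold threshold were the mitochondrial chaperonin pair Hspd1 (−0.40) and Hspe1 (−0.39), the small heat shock protein Hspb1 (−0.36), the inducible HSP90 gene Hsp90aa1 (−0.34) and Hspa8, the HSP70 of unstressed cells (−0.34), of which Hspa8 had the highest adjusted p (4.24e-07 from limma). The members higher at the adjusted p were Dnajb5 (0.21) and Hspa2 (0.23), an HSP70 known from the testis. The mRNA of Hsf1, the factor that drives this program, had a difference of −0.01 (adjusted p = 0.796). Of 48 genes of the unfolded protein and integrated stress responses none was called, and at the adjusted p alone 15 were higher, 9 of them with groups without overlap, and 21 lower. Hspa5, the HSP70 of the endoplasmic reticulum, had a difference of −0.08 (adjusted p = 0.00166) and Calr, calreticulin, one of 0.08 (adjusted p = 0.0108). In the same list the amino acid response genes Asns (−0.26), Trib3 (−0.19) and Atf4 (−0.15) were lower and Sdf2l1 (0.21) and Xbp1 (0.13) higher at the adjusted p.

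**Figure D2:**
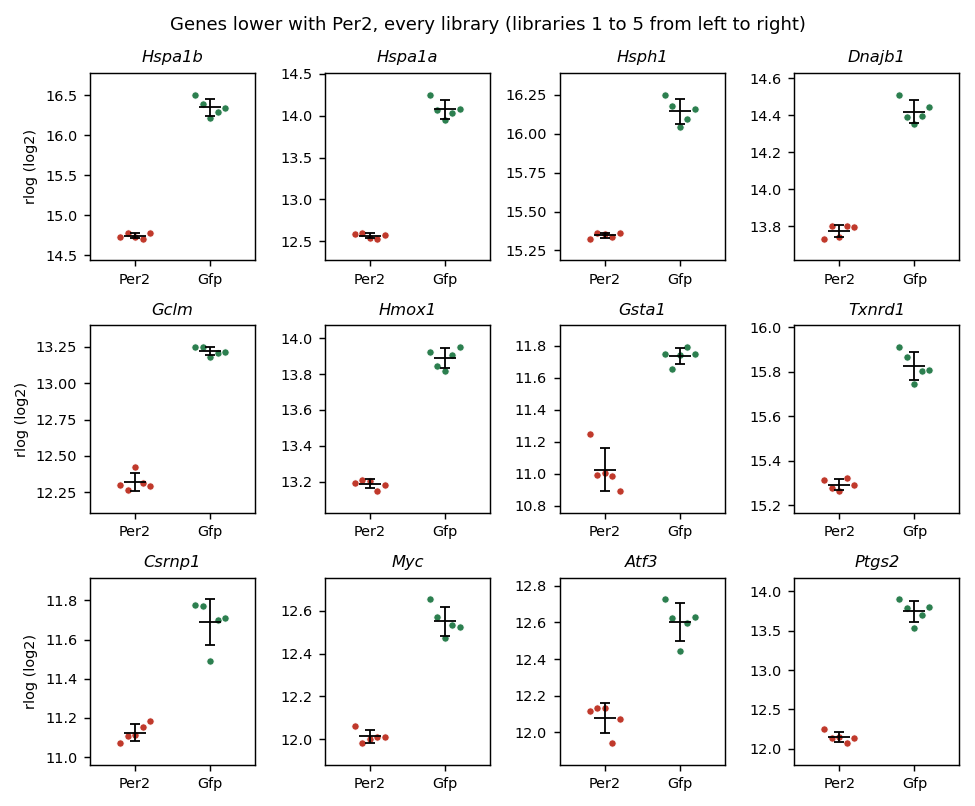
The rlog value of 12 genes called lower, in each Per2 library (red, left) and each Gfp library (green, right), with the mean and SD of each group as a black bar; each panel has its own vertical axis, which does not start at 0. For all 12 genes every Per2 library lies below every Gfp library, with the widest gaps in the HSP70 genes and Ptgs2.

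Antioxidant and glutathione genes were lower as well. NRF2, which Nfe2l2 encodes, is held by KEAP1 until electrophiles or oxidants free it, and then drives genes through antioxidant response elements. Of 49 genes of this list tested, 5 were called lower and none higher, and at the adjusted p alone 32 were lower and 8 higher (median difference −0.12). Gclm, the modifier subunit of the enzyme that limits glutathione synthesis, was at 12.30, 12.27, 12.42, 12.31 and 12.30 rlog units in Per2 libraries 1 to 5, against 13.25, 13.25, 13.18, 13.21 and 13.21 in Gfp libraries 1 to 5. The groups were far apart and only Per2 library 3 departed from its group. Its difference was −0.90 (standard error 0.027, adjusted p = 2.74e-11 from limma), while the catalytic subunit Gclc was at −0.36 (adjusted p = 9.38e-09).

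Hmox1, heme oxygenase, was at 13.15 to 13.21 in Per2 libraries and 13.82 to 13.95 in Gfp libraries (−0.70, standard error 0.025). Gsta1 (−0.71) and its neighbour Gsta13 (−0.68), alpha class glutathione transferases that may share reads, fell together, and all 6 alpha class genes tested were lower at the adjusted p (−0.71 to −0.23), a family counted after its values were seen. Txnrd1, thioredoxin reductase, fell by 0.53 on the log2 scale and Srxn1, sulfiredoxin, by 0.51. Nqo1, a quinone reductase often read as a sign of NRF2 activity, was at −0.32 (adjusted p = 1.24e-05), below the threshold. The metallothioneins Mt1 (−0.26) and Mt2 (−0.30) and the ferritin chains Ftl1 (−0.16) and Fth1 (−0.09) were lower at the adjusted p. Against them stood the pentose phosphate genes G6pdx (0.11) and Tkt (0.18) and the transferase Gstm2 (0.25), which were higher. The mRNA of Nfe2l2 was at −0.07.

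The upstream sequences of Gclm and Txnrd1 are given because each fell and holds a match to the core of the antioxidant response element, TGACNNNGC on either strand, shown in capitals. They are the 250 bases before a RefSeq start site of GRCm38.p6, and for Txnrd1 that of the second of 3 listed start sites.
Gclm, chr3:122245307-122245556, plus strand: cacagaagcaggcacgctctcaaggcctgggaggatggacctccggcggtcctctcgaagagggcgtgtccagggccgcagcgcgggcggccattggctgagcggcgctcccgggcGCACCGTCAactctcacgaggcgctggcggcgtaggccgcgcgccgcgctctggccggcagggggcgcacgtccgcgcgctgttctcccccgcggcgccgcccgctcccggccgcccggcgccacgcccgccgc
Txnrd1, chr10:82858956-82859205, plus strand: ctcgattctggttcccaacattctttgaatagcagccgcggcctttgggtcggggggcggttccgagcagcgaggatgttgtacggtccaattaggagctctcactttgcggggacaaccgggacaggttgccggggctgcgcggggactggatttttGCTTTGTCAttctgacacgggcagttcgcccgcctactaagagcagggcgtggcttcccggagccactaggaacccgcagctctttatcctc
The matches begin 134 and 92 bases before the start site and both lie on the opposite strand. The first and the third start site of Txnrd1 had no match to TGACNNNGC, and neither did Srxn1 or Gsta1 in this window. Other forms of the antioxidant response element were not searched for, so one may still be present there. In windows of 300 bases the core stood in 13 of 54 promoters of the list (24.1%) and in 2252 of the 16153 promoters of all genes tested (13.9%). The E-box CACGTG, to which CLOCK and BMAL1 bind, stood in 7 of 44 promoters of the genes called lower outside the lists left aside (15.9%), in 4 of 32 of those called higher (12.5%) and in 1476 of the 16153 (9.14%). These sets are small and no test was made of the shares.

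Immediate early transcription factors are switched on within minutes of a growth factor or stress signal. Of 28 tested, 3 were called lower, none was called higher, and at the adjusted p alone 21 were lower and 5 higher, with a median difference of −0.21. Csrnp1, an AXIN1-induced nuclear protein, was at 11.07 to 11.18 in Per2 libraries and 11.49 to 11.78 in Gfp libraries (−0.56, standard error 0.046). Myc was at 11.98 to 12.06 in Per2 libraries and 12.47 to 12.65 in Gfp libraries (−0.54, standard error 0.030), and Atf3, a stress-induced repressor, at 11.94 to 12.13 in Per2 libraries and 12.44 to 12.73 in Gfp libraries (−0.53, standard error 0.047). Atf3 missed the threshold without Per2 library 4 (−0.4914) or without Gfp library 1 (−0.4952). Ier3 (−0.45), Nr4a1 (−0.42), Egr1 (−0.29) and Fos (−0.24) were lower at the adjusted p. Klf2 (0.12), Klf4 (0.12), Klf10 (0.11), Jund (0.10) and Btg2 (0.09) were the members that were higher. Dusp5 (−0.42) and Dusp4 (−0.27), phosphatases that damp ERK signalling, were lower at the adjusted p, as were 10 of the 21 genes of the DUSP and Sprouty list. The 2 that were higher became 1 without Per2 library 1, Gfp library 4 or Gfp library 5.

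Growth factor ligands were among the falls. Ereg and Areg, neighbouring genes on chromosome 5 for ligands of the EGF receptor, both fell. Ereg was at 10.70, 10.72, 10.70, 10.71 and 10.75 in Per2 libraries 1 to 5, against 11.37, 11.40, 11.23, 11.38 and 11.42 in Gfp libraries 1 to 5, with a difference of −0.64 (standard error 0.033). Areg was at 10.32 to 10.50 in Per2 libraries and 10.85 to 10.98 in Gfp libraries (−0.55, standard error 0.036), and Hbegf, a further ligand of that receptor, had a difference of −0.38. Gdnf, a factor that keeps motor neurons alive, fell by 0.52 on the log2 scale, a value that was −0.4996 without Gfp library 1. Of 49 receptor tyrosine kinase ligands and receptors, these 3 were called lower and none higher, and at the adjusted p alone 17 were lower and 8 higher, Igfbp2 (0.38) highest. Igf2, an autocrine growth factor of myoblasts, was at −0.12 (adjusted p = 0.0831).

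Ptgs2, the inducible cyclooxygenase of prostaglandin synthesis, was at 12.25, 12.14, 12.15, 12.07 and 12.14 rlog units in Per2 libraries 1 to 5, against 13.90, 13.78, 13.53, 13.70 and 13.80 in Gfp libraries 1 to 5. It fell about as far as the HSP70 genes (−1.59, standard error 0.053, adjusted p = 7.44e-11 from limma). The constitutive enzyme Ptgs1 was at 0.13. Abcc4, a pump that exports prostaglandins and cyclic nucleotides, was at 11.39 to 11.58 in Per2 libraries and 12.02 to 12.24 in Gfp libraries (−0.68, standard error 0.043), and it was the only member called among 33 ABC transporters. Procr, the endothelial receptor of protein C, fell by 0.73, while the plasminogen activators Plat (0.25) and Plau (0.19) were higher at the adjusted p. On the leukotriene side Alox5ap, which presents arachidonic acid to 5-lipoxygenase, rose (0.83).

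Efr3b, a plasma membrane anchor of a phosphatidylinositol 4-kinase, was at 8.12, 8.06, 8.02, 8.13 and 8.02 in Per2 libraries 1 to 5, against 9.57, 9.39, 9.53, 9.47 and 9.49 in Gfp libraries 1 to 5. Its difference of −1.42 (standard error 0.037) was of the same order as that of the HSP70 genes, and the groups were far apart. Tent5c, a noncanonical poly(A) polymerase, was at 10.28 to 10.46 in Per2 libraries and 11.07 to 11.25 in Gfp libraries (−0.83, standard error 0.040). Nfkbiz, an inducible regulator of NF-κB, was at 11.62 to 11.73 in Per2 libraries and 12.23 to 12.55 in Gfp libraries (−0.76, standard error 0.046). Ptp4a1, a phosphatase of growing cells, had a difference of −0.66, and a second gene ID with the same symbol means that its reads may be split. Tnfsf18, a ligand of the TNF family, fell by 0.60 and Csf1, the growth factor of macrophages, by 0.54.

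Some inhibitors and targets of TGF-β and BMP signalling fell. Smad7, the inhibitory SMAD that TGF-β itself induces, was at 11.00 in Per2 library 1 and at 11.22 to 11.25 in the other Per2 libraries, against 11.72 to 11.94 in Gfp libraries (−0.68, standard error 0.050). Grem1, a secreted BMP antagonist, was at 13.22 to 13.53 in Per2 libraries and 13.90 to 14.12 in Gfp libraries (−0.57, standard error 0.050). Of the CCN matricellular proteins, Ccn1 (−0.72) and Ccn2 (−0.52) fell and Ccn3 rose (0.55), a family counted after its values were seen. Of 47 genes in the TGF-β, BMP and activin list 3 were called lower, Smad7 and Grem1 among them, and none higher, and at the adjusted p alone 22 were lower and 9 higher, 5 of these without overlap of the groups. Of the ligands, Inhbb (−0.30), Bmp4 (−0.26) and Tgfb2 (−0.22) were lower at the adjusted p, and Tgfb1 (−0.03) and Mstn, myostatin (0.00), were not past it. Tgfbi was the highest member (0.34).

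**Figure D3:**
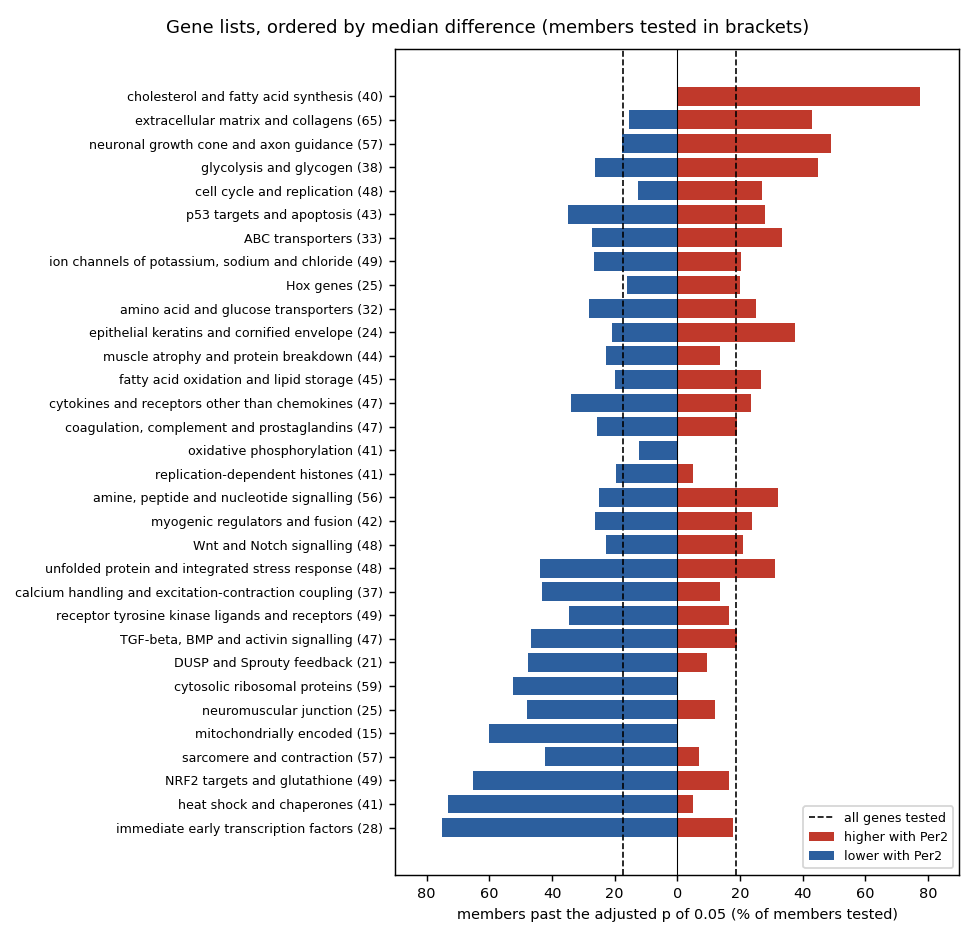
Share of each gene list past the adjusted p of 0.05, higher with Per2 to the right and lower to the left, with dashed lines at the shares over all genes tested (18.6% and 17.5%) and the number of members tested in brackets. The lists run from cholesterol and fatty acid synthesis at the top (31 of 40 higher and none lower) to immediate early factors at the bottom (21 of 28 lower).

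The rises outside the lists left aside were led by genes of varied function. Osbp2, which binds oxysterols, was at 11.63, 11.63, 11.56, 11.85 and 11.59 rlog units in Per2 libraries 1 to 5, against 10.52, 10.53, 10.87, 10.51 and 10.76 in Gfp libraries 1 to 5. Per2 library 4 was highest, the Gfp libraries spread over more than 0.3, and the groups did not overlap (log2 difference 1.01, standard error 0.071, adjusted p = 1.34e-07 from limma). The related genes Osbp (0.00), Osbpl3 (0.01) and Osbpl6 (0.00) were not past the adjusted p. Hdc, which makes histamine from histidine, was at 11.00, 10.90, 10.87, 10.88 and 10.80 in Per2 libraries 1 to 5, against 9.89, 10.03, 9.99, 9.91 and 9.90 in Gfp libraries 1 to 5, a difference of 0.95 (standard error 0.038). Alox5ap was at 10.76 to 10.91 in Per2 libraries and 9.91 to 10.16 in Gfp libraries (0.83, standard error 0.048).

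Gap43, Tubb3 and Stmn4, genes of the neuronal growth cone, rose. The list they belong to holds proteins of the cortical membrane and the microtubules that are best known from growing axons, though muscle precursors also express some of them. Gap43, a membrane protein of growth cones, was at 12.33, 12.23, 12.22, 12.46 and 12.22 in Per2 libraries 1 to 5, against 11.29, 11.26, 11.42, 11.34 and 11.36 in Gfp libraries 1 to 5 (0.96, standard error 0.044, adjusted p = 2.22e-09 from limma). Tubb3, the neuronal β-tubulin, was at 15.03, 15.03, 15.01, 15.11 and 15.01 in Per2 libraries 1 to 5, against 14.19, 14.27, 14.27, 14.28 and 14.29 in Gfp libraries 1 to 5 (0.78, standard error 0.024). For both genes Per2 library 4 was highest, and the gap between the groups was wider than the spread within them. Per2 library 4 also had the lowest mean of 12 interferon genes among the Per2 libraries (9.92, against 10.29 to 10.72 in the other Per2 libraries and 9.42 to 9.88 in Gfp libraries). With each library left out in turn, the difference ran from 0.916 to 0.979 for Gap43 and from 0.761 to 0.787 for Tubb3. Whether the lower interferon level of library 4 bears on the rises was not tested. Stmn4, a stathmin that binds tubulin dimers, was at 11.32 to 11.49 in Per2 libraries and 10.75 to 10.82 in Gfp libraries (0.60, standard error 0.032).

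Of 57 growth cone and axon guidance genes these 3 were called higher and none lower, and at the adjusted p alone 28 were higher and 10 lower (median difference 0.06), and 18 of the 28 had groups without overlap. Among cytoskeletal members Tubb2b (0.49), Stmn2 (0.48), Nefl (0.32) and Map2 (0.22) were higher, and Mapt (−0.03), Nefh (−0.01), Nefm (0.00) and Dcx (0.05) were not past the adjusted p. Members lower at the adjusted p were mostly guidance receptors and ligands, such as Sema7a (−0.44), Epha2 (−0.35), Robo2 (−0.34) and Epha4 (−0.24), while L1cam (0.31) and Sema3c (0.25) were higher. Counted after their values were seen, 12 of 13 α-, β- and γ-tubulin genes were higher at the adjusted p and none lower (median 0.31), with Tuba1a called (0.53) beside Tubb3. Markers of neurons and Schwann cells did not move with them, since of the 4 tested none was higher at the adjusted p and Elavl3 was lower (−0.11).

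**Figure D4:**
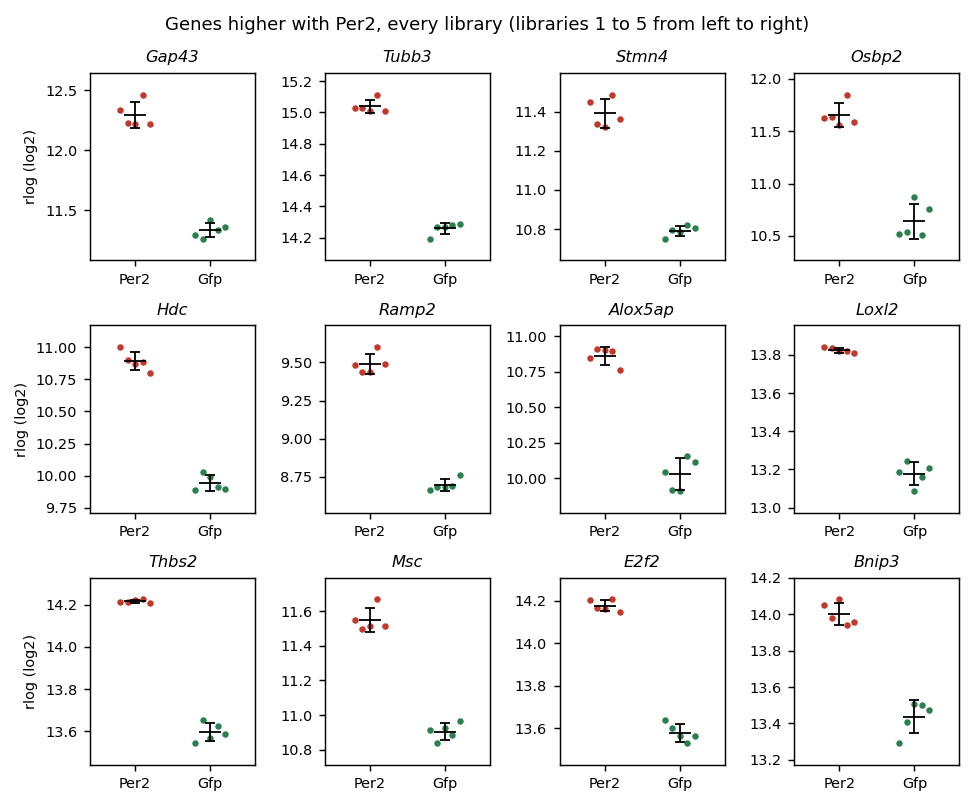
The rlog value of 12 genes called higher, in each Per2 library (red, left) and each Gfp library (green, right), with the mean and SD of each group as a black bar; each panel has its own vertical axis, which does not start at 0. The groups do not overlap in any panel, and Per2 library 4 is the highest library for Gap43, Tubb3, Stmn4, Osbp2, Ramp2 and Msc, among others.

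Ramp2, which turns the calcitonin receptor-like receptor into an adrenomedullin receptor, was at 9.44 to 9.60 in Per2 libraries and 8.66 to 8.77 in Gfp libraries (0.79, standard error 0.035). Its relative Ramp3 (0.47) and the receptor itself, Calcrl (0.28), were higher at the adjusted p, and Ramp1 was lower (−0.11). Of 56 genes of amine, peptide and nucleotide signalling, Ramp2 and Hdc were the 2 called higher and none was called lower, and at the adjusted p alone 18 were higher and 14 lower, with Npr3, the clearance receptor of natriuretic peptides, lowest (−0.49).

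Matrix genes were higher more often than lower. Loxl2, a lysyl oxidase that crosslinks collagen, was at 13.81 to 13.84 in Per2 libraries and 13.09 to 13.25 in Gfp libraries (0.65, standard error 0.025), and Thbs2, thrombospondin 2, at 14.21 to 14.23 in Per2 libraries and 13.54 to 13.66 in Gfp libraries (0.62, standard error 0.021). The 5 Per2 libraries were nearly equal for both. Of 65 matrix genes these 2 were called higher and none lower, and at the adjusted p alone 28 were higher and 10 lower (median 0.06). Mmp13 (0.34), Col6a2 (0.29), Agrn (0.28) and Col3a1 (0.25) were higher and Thbs1 (−0.32), Fbln5 (−0.27) and Col8a1 (−0.24) lower. Emilin1 (0.61), an elastic fibre protein, and Dpt (0.62), dermatopontin, rose as well. Markers of fibro-adipogenic cells, some of which are matrix genes themselves, were higher too. Their summed level was 16.07 to 16.16 in Per2 libraries and 15.74 to 15.92 in Gfp libraries, and of 8 tested 5 were higher at the adjusted p, among them Dcn (0.25) and Ly6a (0.29), which interferon also induces, and none lower, while Pdgfra was at 0.02 and Tcf21 was under the limit. Dcn, Lum and Col15a1 stand in both lists and Dpt is a matrix protein, so the markers are not separate from the matrix genes. The part of such cells in the matrix result was not tested.

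Among the other rises were Hhip, an inhibitor of hedgehog ligands (0.66, standard error 0.083), Msc, a repressor of myogenic factors (0.64, standard error 0.034), and E2f2, a cell cycle transcription factor (0.60, standard error 0.022). Msc was at 11.50 to 11.67 in Per2 libraries and 10.84 to 10.97 in Gfp libraries, and E2f2 at 14.15 to 14.21 in Per2 libraries and 13.53 to 13.64 in Gfp libraries. The rest of the cell cycle list did not follow E2f2 to the threshold. Of 48 tested it was the only one called, and at the adjusted p alone 13 were higher and 6 lower, with Mcm7 (−0.19) and Mcm3 (−0.12) lower and Ccne1 (0.25), Ube2c (0.18) and Cdk1 (0.17) higher, and Mki67 at −0.01. The count of higher members was 7 after median centring, and that of lower members was 3 without Gfp libraries 1 and 2 and 1 where groups without overlap were required. Bnip3, a mitophagy receptor of the mitochondrial surface, was at 13.94 to 14.08 in Per2 libraries and 13.29 to 13.51 in Gfp libraries (0.56, standard error 0.040), while its relative Bnip3l was at 0.05. Krt13, an epithelial keratin (0.57, standard error 0.033), and Sprr1a, a cornified envelope protein also known from regenerating neurons (0.51, standard error 0.068), were the members called of 24 keratin and envelope genes. Sprr1a fell below the threshold without Per2 library 1 (0.4555) or 3 (0.4946) or Gfp library 1 (0.4717) or 2 (0.4970).

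Colec10, a soluble lectin, and Ccn3 lie next to each other on chromosome 15 among the genes tested and both rose (0.61 and 0.55). Dkk2, a Wnt antagonist, rose by 0.52, a value that missed the threshold without Per2 library 1 (0.4810) or 4 (0.4911) or Gfp library 4 (0.4991), and Apod, a lipocalin, by 0.52, which was 0.4829 without Gfp library 1. Enpp3 (0.61), an ectonucleotide phosphatase, and Aatk (0.60), a kinase first found in apoptotic cells, complete the largest 20 rises outside the lists left aside. The others called higher were Mgarp, Adam8, Stab2, Fads6, Rhd, Tuba1a, Eif5a2, Uap1l1, Slc26a4 and the long noncoding RNA Gm36377, with differences from 0.50 to 0.55.

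Most lipid synthesis genes were higher by a small amount. Sterols are made from acetyl-CoA by way of mevalonate, and the transcription factor SREBP2 raises the genes of that path when membrane cholesterol is low. Of 40 cholesterol and fatty acid synthesis genes none was called, yet at the adjusted p alone 31 were higher and none lower, with a median difference of 0.16 and a highest of 0.39 (Stard4, which carries sterols between membranes). Members from early and late steps of the path are among them. Hmgcs1 (0.21, adjusted p = 0.000118 from limma), Pmvk (0.34), Fdft1 (0.31), Msmo1 (0.31) and Hsd17b7 (0.28) were all higher. Stard4 was at 13.46 to 13.57 in Per2 libraries and 13.03 to 13.17 in Gfp libraries, and the groups did not overlap.

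The desaturases Scd1 and Scd2, the members with the highest mean, were at 17.84 to 18.02 and 18.41 to 18.54 in Per2 libraries, against 17.64 to 17.75 and 18.12 to 18.32 in Gfp libraries. Their differences were 0.24 and 0.26, and neither pair of groups overlapped. The mRNAs of the factors were higher by less (Srebf1 0.15 and Srebf2 0.11). Fasn (0.06), Acaca (0.06) and Ebp (−0.05) were not past the adjusted p. After median centring or quantile normalization, and without Gfp library 1, 1 member was lower at the adjusted p, and without Gfp libraries 1 and 2 there were 2. Apoe, which carries lipids out of cells, was lower at the adjusted p (−0.41) and Dgat2, an enzyme of triglyceride synthesis, higher (0.27).

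**Figure D5:**
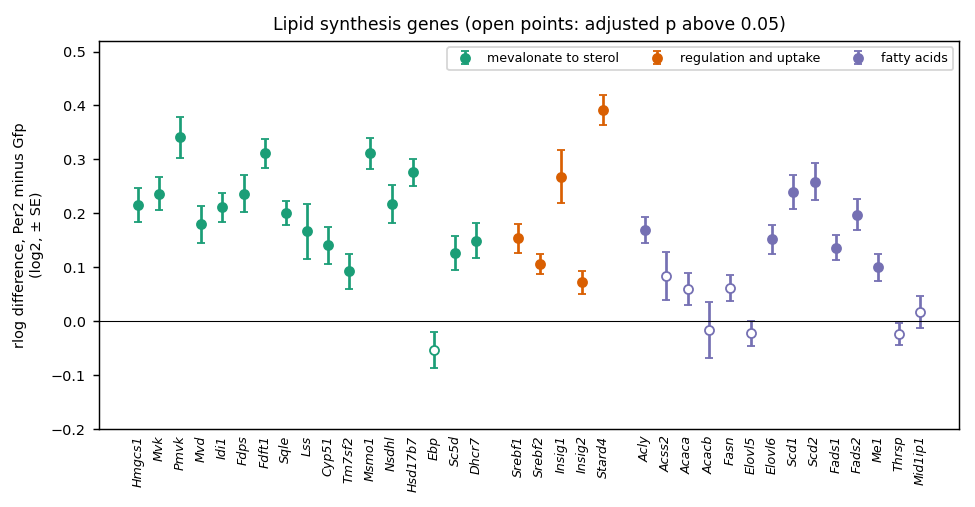
Log2 difference in rlog, Per2 minus Gfp, with its standard error for 36 of the 40 lipid synthesis genes, in the order of the pathway for the sterol enzymes; filled points are past the adjusted p of 0.05 and open points are not. The sterol enzymes from Hmgcs1 to Dhcr7 lie above 0, except Ebp (−0.05), with Tm7sf2 lowest of the others (0.09) and Pmvk highest (0.34).

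Of 57 sarcomere genes none was called, and at the adjusted p alone 24 were lower and 4 higher (median −0.09). The fast myosin heavy chains Myh1 (−0.44) and Myh2 (−0.40), Myot, a Z-disc protein (−0.43), and Tcap, which caps titin (−0.34), were lowest. Pdlim3 (0.28), Nebl (0.27), Myh7 (0.19), the slow myosin, and Myh3 (0.11), the embryonic one, were higher, and the actin Acta1 (−0.02) and Des (−0.02) were not past the adjusted p. Of 25 genes of the neuromuscular junction 12 were lower at the adjusted p, such as Ache, acetylcholinesterase (−0.34), Chrne (−0.22) and Chrng (−0.13) of the acetylcholine receptor, and 3 were higher, or 5 without Per2 library 4, Gfp library 1 or Gfp library 3. Requiring groups without overlap left 5 of the 12. Of 37 calcium handling genes 16 were lower at the adjusted p, among them the pumps Atp2a1 (−0.14) and Atp2a2 (−0.13), and Mrln, the peptide myoregulin that inhibits these pumps, was the highest (0.44). Only 8 of the 16 had groups without overlap.

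Of 42 myogenic regulators and fusion genes, Msc was the only one called. Myog was at 15.42 to 15.58 in Per2 libraries and 15.35 to 15.53 in Gfp libraries (0.06, adjusted p = 0.158). Myod1 (0.07) and Myf5 (0.14) were higher and Myf6 (−0.29) and the fusion protein Mymk (−0.14) lower at the adjusted p. Among atrophy genes, Trim63, the ubiquitin ligase MURF1, was at 12.66 to 12.77 in Per2 libraries and 12.69 to 12.76 in Gfp libraries (0.00, adjusted p = 0.909). Fbxo32, the ligase MAFBX, was at 13.12 to 13.19 in Per2 libraries and 13.05 to 13.14 in Gfp libraries, a difference of 0.07 (adjusted p = 0.0209) with groups that overlapped. Of 44 genes of atrophy and protein breakdown Bnip3 alone was called, while 6 members were past the adjusted p upward and 10 downward.

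Ribosomal protein genes were lower by a little, and in a way that depended on the libraries. Of 59 tested none was called, and at the adjusted p alone 31 were lower and none higher (median −0.07). Rplp0 was at 17.63 to 17.68 in Per2 libraries and 17.67 to 17.83 in Gfp libraries (−0.10, adjusted p = 0.00792). Requiring groups without overlap left 12, and leaving out Gfp libraries 1 and 2 raised the count to 52. Of 41 nuclear genes of oxidative phosphorylation 5 were lower at the adjusted p (median −0.01), a share below that of all genes. This count was 3 without Per2 library 1 or 4 or Gfp library 3, 4 or 5, 8 without Gfp library 2, and 26 without Gfp libraries 1 and 2. Of 15 genes of the mitochondrial genome 9 were lower, 5 of them without overlap, and none higher (median −0.08). In glycolysis and glycogen metabolism 17 of 38 were higher at the adjusted p, such as Ppp1r3c (0.44), Pfkfb3 (0.35) and Pdk1 (0.27), and 10 lower, such as Ppp1r3a (−0.41) and Pdk4 (−0.27).

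The p53 list was split, with 12 of 43 genes higher and 15 lower at the adjusted p. Cdkn1a, the p21 inhibitor of cell cycle kinases, averaged a difference of 0.15 without overlap of the groups, and Mdm2 was at −0.30. Of 47 cytokines and their receptors, Csf1 alone was called, while 11 members were past the adjusted p upward and 16 downward. Il6 was at 7.28 to 7.42 in Per2 libraries and 7.44 to 7.67 in Gfp libraries (−0.22, adjusted p = 0.00212), and Il18 (0.38) and Il6ra (0.35) were highest. Tnf stood at about 5.15 and Il1a at about 3.20 in both groups, Il1a just above the limit of 3. Of the 20628 genes tested, 16878 averaged 5 or more. Of 25 Hox genes 5 were higher and 4 lower, and the lower count was 1 without Per2 library 2 and 2 without Gfp library 2. Of 41 replication-dependent histone genes, most of whose mRNAs lack a poly(A) tail, 2 were higher and 8 lower.

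Of 2452 long noncoding RNA genes tested, 1 was called higher and 5 lower, and other noncoding RNAs were called lower. The 7SL RNAs Rn7s1 (−0.60) and Rn7s2 (−0.75), the RNA core of the signal recognition particle, and Rn7sk (−0.76), which holds back the elongation factor P-TEFb, were lower with Per2. Rn7sk was at 9.31, 9.09, 9.14, 9.27 and 9.30 rlog units in Per2 libraries 1 to 5, against 9.87, 10.06, 9.91, 10.09 and 10.00 in Gfp libraries 1 to 5. Rn7s2 was at 9.54 to 9.87 in Per2 libraries and 10.29 to 10.74 in Gfp libraries. Gm26917 (−0.78), Mir6236 (−0.57), the protein-coding gene Lars2 (−0.56) and the unnamed gene ENSMUSG00000106106 (−0.59) were also called lower without overlap. They were chosen after their values were seen, as genes whose reads may include ribosomal RNA or RNA without a poly(A) tail. Whether the fall of Lars2 is that of its mRNA was not tested. ENSMUSG00000106106 stands at 17.32 to 17.48 in Per2 libraries and 17.73 to 18.33 in Gfp libraries. Poly(A) selection came before library making, and the 7SL and 7SK RNAs have no such tail. The part of carried-over RNA in other results was not tested. Dancr, a long noncoding RNA that hosts a small nucleolar RNA, was at 9.47 to 9.55 in Per2 libraries and 10.07 to 10.26 in Gfp libraries (−0.67, standard error 0.038), and 2700038G22Rik was at −0.79 (standard error 0.045). Mir17hg, the host of the miR-17 cluster, fell by 0.55.

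Also called lower outside the lists left aside were Styk1, Gm12905, Synm, Npc1l1, Swt1, Lrrc14b, Slc19a2, Asb15, Gm44777, Slpi, Serpinc1, Mgp, Gm12895, Gm12896, Gm5176 and 4933427D14Rik, with differences from −0.66 to −0.50. Of these 4933427D14Rik was the only one whose groups overlapped. Among the named genes, the calls lost by leaving out Gfp libraries 1 and 2 together included those of Myc (−0.4981), Csf1 (−0.4963) and Txnrd1 (−0.4911), beside Apod, Atf3, Gdnf and Sprr1a, and of all genes 69 were then called higher and 46 lower. This choice was made after seeing the data.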

How the data were processed

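Bulk RNA sequencing of 10 libraries (5 Per2, 5 Gfp) of C2C12 myotubes was analysed, with groups and numbers from the sample labels. The authors selected poly(A) RNA, used STAR for alignment, and deposited regularized log2 values (rlog) of gene counts, without the counts themselves. Labels and paper differ in the genome build (mm10 against GRCm39), read length, sequencer and library kit. Of 55335 gene IDs, 51654 were found in GENCODE M39, 35 of them in the same version, and symbols and chromosomes come from there; Rn7s1, Rn7s2, Rn7sk and Gm26917 take theirs from the study's supplement. Printed coordinates and promoters are of RefSeq GRCm38.p6, where 12729 of the genes tested had a promoter.

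The 20628 genes whose rlog averaged 3 or more were tested in limma 3.58.1 (R 4.3.3) on the rlog values with no other normalization, with a trend in the prior variance, two-sided, with Benjamini-Hochberg adjustment over all of them. Calls had to pass both 0.05 for the adjusted p and 0.5 for the size of the log2 difference. The procedure was also run on simulated data with independent normal noise, whose outcome is not reported here. The members and gene lists were chosen with earlier results of these data known, so lists are described by counts and medians, with no test. A list's summed level is the log2 of the sum of its members' values after they were taken out of the log scale. Named genes were Per2, the 20 largest rises and 20 largest falls among called genes whose groups did not overlap (model numbers, pseudogenes and the lists left aside excepted), up to 4 called members of each list in each direction or else its 2 members with the highest mean, the 5 largest noncoding rises and falls, and 9 genes that the paper names. Other genes named are list members or were chosen after their values were seen.

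Alternatives were array weights, no trend, quantile normalization or median centring, no filter or a filter at 5, a log2 threshold of 1, groups that do not overlap, a replicate block on library number, and each library left out. Leaving out Gfp libraries 1 and 2 together was added after seeing the data. Some genes that were tested and counted are not reported by name here.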

Additional observations from a re-analysis of the deposited data

Results flagged for a closer look

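Of 212 groups of 5 libraries (106 named genes, Per2 and Gfp), 12 held a library whose gap to its nearest neighbour exceeded 0.71 of the range of its group, against about 1 in 20 by chance. Among Per2 libraries these were library 3 for Gclm (12.42, highest of its group), library 4 for Tubb3 (15.11, highest), Osbp2 (11.85, highest) and H1f2 (14.86, lowest), library 1 for Smad7 (11.00, lowest) and Calr (16.96, lowest), and library 5 for Itgam (8.20, lowest). Among Gfp libraries these were library 1 for Tubb3 (14.19, lowest), library 5 for Ramp2 (8.77, highest), and library 3 for Ereg (11.23), Csf1 (14.37) and Csrnp1 (11.49), each the lowest of its group. For Gclm, Tubb3, Osbp2, Smad7, Ramp2, Ereg, Csf1 and Csrnp1 the groups of Per2 and Gfp libraries did not overlap with the library in place.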

How the results depend on the processing

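The counts of genes called (67 higher and 61 lower) stayed within 1.5 times under every alternative except a fold threshold of 1, which left 3 higher and 7 lower, 4 members of the lists and 6 named genes. Leaving out each library in turn gave 64 to 83 genes higher and 54 to 62 lower, the 83 without Per2 library 4, and 3377 to 3690 higher and 3159 to 3525 lower at the adjusted p alone. The Per2 difference ran from 4.86 to 4.92. Requiring groups without overlap moved 21 of the counts past the adjusted p in gene and marker lists by over 1.5 times. Of 58 named genes called, 5 lost the call without 1 library (Apod, Atf3, Dkk2, Gdnf and Sprr1a) and 3 in another setting. Dkk2 was at 0.4855 after quantile normalization and 0.4882 with array weights, Apod at 0.4970 after median centring and 0.4960 after quantile normalization, and Sprr1a at 0.4859, 0.4782 and 0.4615 under these 3 settings. Atp5f1b, not called, was at −0.06 (adjusted p = 0.0327) and at 0.021 (adjusted p = 0.434) after quantile normalization; the cause was not tested. No pairing by library number was apparent (correlations of same-numbered deviations −0.10 to 0.18, and 1 of 5 Per2 libraries correlated best with its own number). These values cannot exclude a pairing, as each group has only 5 libraries. With the numbers as a replicate block 67 genes were higher and 61 lower, with 3748 higher and 3545 lower at the adjusted p. Depth is unknown, and the rlog shrinks differences of genes with few reads most, so that changes of such genes may be missed.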
